A study of Mus musculus with 5 samples.

Results

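The contractile apparatus of the vessel wall was described through 32 genes of smooth muscle filaments, their regulators and their anchors, in thoracic aorta of male C57BL/6 mice. The genes were named by symbol and not by their measured values, and all 32 were found among 18193 named genes, through 67 of 45037 probe sets. A probe set is a group of short probes near the 3′ end of a transcript. Each gene was read from its brightest probe set, the one with the highest mean over the 5 arrays, and its dimmer probe sets were set beside it. Non-transgenic littermates gave 2 arrays. Mice carrying P467L, a dominant negative mutant of human PPARγ driven by the smooth muscle myosin heavy chain promoter, gave 3 arrays. That promoter belongs to Myh11, itself among the 32 genes, so the transgene is directed to the cells described here. The mice still carry their own Pparg. Every array was a separate pool of 6 to 8 aortas, so the spread between arrays is a spread between pools, and the age of the mice is not stated in the labels. In whole aorta, fewer cells of a type and less RNA per cell cannot be told apart.

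Smooth muscle contracts when calcium and calmodulin activate myosin light chain kinase, which phosphorylates the regulatory light chain and lets myosin pull on actin. Myosin phosphatase reverses this step, and nitric oxide signalling through cyclic GMP favours relaxation. Many contractile genes are switched on by serum response factor, which binds a short DNA element called the CArG box and is strengthened by its cofactor myocardin. In injured or diseased arteries smooth muscle can lose part of this program.

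The CArG box, CC and GG around a run of A and T, is shown because it is the element by which many of these genes are known to be controlled together. Promoter sequences from RefSeq (GRCm38.p6) were at hand for 27 of the 32 genes. In the 250 bases before an annotated start, 4 of these 27 genes held an exact box (14.8%), against 439 of 27025 genes in the whole table (1.62%). The box reads as the same form on both strands. The 4 genes were Srf, Vcl (vinculin), Myl9 and Filip1l. With 1 G or C allowed inside the run, 3 of 27 genes held such a form (11.1%, against 8.33% of all genes), and Acta2 carried a pair of them. With 1 change in the outer CC or GG, 7 of 27 held a form (25.9%, against 12.8%). A match is a description of the letters and was not tested for binding. The boxes are in capitals, 5′ to 3′ on the strand of the gene. Srf lies at chr17:46556207-46556252 on the minus strand with a pair of boxes, Vcl at chr14:20929156-20929195 (plus), Myl9 at chr2:156775288-156775327 (plus), Filip1l at chr16:57549165-57549204 (plus), and the Acta2 windows at chr19:34255433-34255472 and chr19:34255383-34255422 (minus).
Srf: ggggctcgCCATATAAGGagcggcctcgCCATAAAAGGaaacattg
Vcl: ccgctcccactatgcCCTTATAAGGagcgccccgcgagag
Myl9: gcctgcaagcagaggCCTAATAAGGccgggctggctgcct
Filip1l: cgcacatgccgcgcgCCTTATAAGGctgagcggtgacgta
Acta2 (farther from the start): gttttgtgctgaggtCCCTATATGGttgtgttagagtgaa
Acta2 (nearer the start): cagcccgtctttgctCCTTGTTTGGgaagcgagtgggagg
The differences between genotypes in these 5 genes were 0.02 for Acta2, -0.01 for Myl9, -0.01 for Vcl, -0.09 for Srf and -0.16 for Filip1l, in log2 units and taken as P467L minus control. Hspb6, which also held a form with a G inside the run and is not shown, measured -0.30.

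P467L replicate 1 stood apart from the other arrays. Its correlations with them over all probe sets were 0.985 to 0.991, while the other 4 arrays correlated with each other at 0.995 to 0.997. Stomach markers were highest in non-transgenic replicate 2, where the mean log2 level of 16 of 16 listed genes was 9.33 against 6.91 to 7.29 in the other arrays. Endothelial markers averaged 8.98 to 9.09, fibroblast markers 11.87 to 12.06 and striated muscle markers 5.93 to 6.26 over the 5 arrays, but their members went both ways. Single differences ran from -1.05 to 0.73 in 13 endothelial, -0.72 to 0.64 in 12 fibroblast and -0.48 to 1.33 in 27 striated muscle genes. The groups separated in 6 endothelial, 5 fibroblast and 3 striated muscle genes (46.2%, 41.7% and 11.1%, against 22.7% of all genes). Macrophage markers averaged 9.02 and 9.08 in the controls against 9.06 to 9.31 in P467L aortas. Adipocyte markers averaged 9.50 and 8.72 in the controls against 8.89 to 9.43, so the groups overlapped. Lymphocyte markers averaged 6.32 in both controls against 6.04 to 6.31 and were lower by their means in 10 of 10 genes, with a median of -0.16. The part of these cell types in the results was not tested. No log2 value on these arrays was below 3.03, so no marker reads as 0. The defining smooth muscle markers fitted the label: Acta2, Tagln, Myh11, Cnn1, Smtn and Lmod1 lay at 11.91 or above in every array, where array medians were 6.17 to 6.25.

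By their brightest probe sets, most contractile genes read nearly the same in both genotypes, while dimmer probe sets often gave larger differences. Over the 32 genes the median difference was -0.01 log2 units, with 14 higher and 18 lower in P467L aortas, beside a median of 0.02 over all 18193 genes. The difference was under 0.1 log2 units in size in 18 genes, and it reached 0.3 in 5: Pln, Nexn, Myocd, Pgm5 and Hspb6. Limma called 0 of the 32 genes at an adjusted p of 0.05, beside 0% of all genes and probe sets, and the 32 adjusted p values ran from 0.493 to 0.990. At an unadjusted p of 0.05, 6 genes passed (18.8%), 5 higher and 1 lower. Of all genes 9.45% passed, 6.94% higher and 2.51% lower, and of all probe sets 7.44%. In 13 genes every P467L array lay on the same side of both controls, 6 higher and 7 lower, or 40.6% of the 32. Over all genes that share was 22.7%, with 16.1% higher and 6.55% lower. Among bright genes, those with a mean of 11 or more, it was 36.9% (26.1% higher, 10.8% lower), beside 10 of the 26 contractile genes at that level (38.5%, 5 higher and 5 lower). The share of contractile genes that separated was therefore close to that of bright genes in general.

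**Figure D1:**
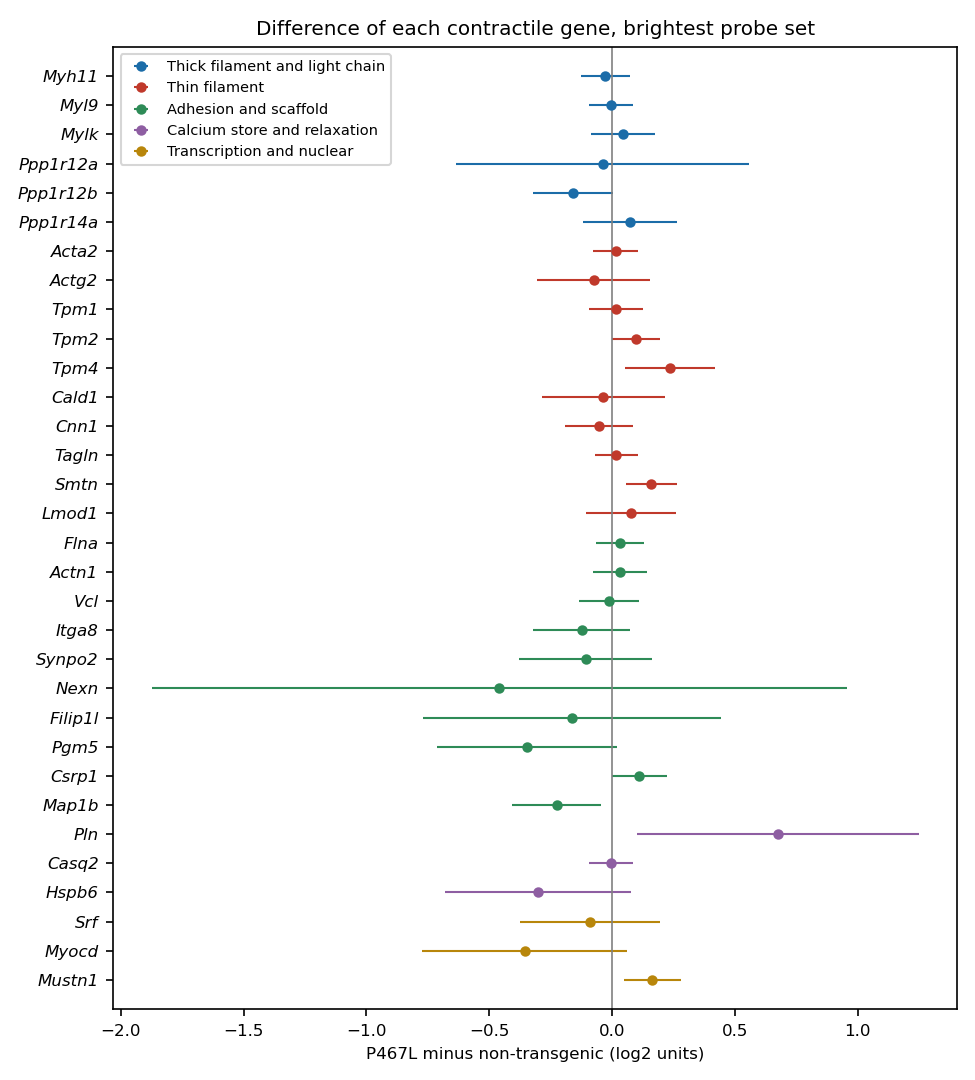
Difference between P467L and non-transgenic aortas for each of the 32 contractile genes (x axis, log2 units, brightest probe set), coloured by role, with bars for the 95% interval of the limma fit (3 against 2 arrays). Most points lie within 0.2 of zero, Pln lies farthest to the right at 0.68 and Nexn farthest to the left at -0.46 with the widest bar.

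Myosin is the motor of the thick filament. Myh11, the smooth muscle myosin heavy chain, read 13.94 and 13.92 in non-transgenic aortas (replicates 1 and 2) against 13.87, 13.93 and 13.91 in P467L aortas (replicates 1 to 3), the order kept below. The groups overlapped, and the 95% interval of the difference was -0.13 to 0.07. Its dimmer probe set (1418122_at) read 9.15 and 9.13 in the controls against 8.98, 8.85 and 8.84, lower in 3 of 3 P467L arrays by 0.25 (SE 0.06, adjusted p = 0.487). The 95% interval of that difference, -0.41 to -0.09, reached beyond that of the brighter probe set and did not include its value of -0.03. Myl9, the regulatory light chain that the kinase phosphorylates, lay between 14.41 and 14.44 in all 5 arrays, with an interval of -0.09 to 0.08. The highest value on these arrays was 14.99, and whether such bright readings understate a difference was not tested.

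Mylk, the myosin light chain kinase, gave different sizes by probe set. Its brightest probe set read 13.54 and 13.45 in non-transgenic and 13.50, 13.56 and 13.56 in P467L aortas, and the groups overlapped. The next (1425505_at) read 13.07 and 12.79 against 13.38, 13.46 and 13.21, a difference of 0.42 (SE 0.12, adjusted p = 0.560). The third (1425504_at) read 10.53 and 10.36 against 10.82, 10.62 and 10.60, a difference of 0.23 (SE 0.10, adjusted p = 0.736). Both dimmer probe sets were higher in every P467L array than in either control, and neither passed the test. The 3′ end of this gene also encodes telokin, a short smooth muscle protein without kinase activity, and these probe sets are not assigned to either product in the sources used here.

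Myosin phosphatase takes the phosphate off the light chain. Ppp1r12a, the targeting subunit of myosin phosphatase, read 12.69 and 12.66 in non-transgenic and 12.25, 12.74 and 12.92 in P467L aortas. The low value was that of replicate 1, and the difference was -0.04 with all arrays and 0.16 without that array. Replicate 1 was lowest in all 4 Ppp1r12a probe sets, by at least 0.5 log2 units in 3 of them. Ppp1r12b, the related subunit of muscle, read 12.38 and 12.26 against 12.22, 12.15 and 12.11, a difference of -0.16 (SE 0.06, adjusted p = 0.685) with groups that did not overlap. A dimmer Ppp1r12b probe set (1445850_at) gave -1.13 (SE 0.73), with 7.19 in replicate 1 against 8.94 to 9.77 elsewhere. In the other 3 Ppp1r12b probe sets replicate 1 was the highest of the P467L arrays. Ppp1r14a, the phosphatase inhibitor CPI-17, read 12.31 and 12.19 against 12.37, 12.37 and 12.23, and the groups overlapped.

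Among 10 thin filament genes, 7 were higher and 3 lower by their means, and the ranges separated in 3, all higher. Of all genes 16.1% separated toward higher levels, and of those at a level of 11 or more 26.1% did. Smtn (smoothelin, a marker of fully differentiated contractile cells) read 13.13 and 13.11 in non-transgenic and 13.26, 13.32 and 13.26 in P467L aortas. The difference of 0.16 (SE 0.04, 95% interval 0.06 to 0.26) had the smallest adjusted p of the 32 genes, 0.493. Leaving out any 1 array gave 0.14 to 0.17.

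Tropomyosins are coiled coils that run along actin. Tpm2 read 14.47 and 14.44 in non-transgenic and 14.58, 14.55 and 14.53 in P467L aortas, higher in 3 of 3 arrays by 0.10 (SE 0.04, adjusted p = 0.669). All 4 Tpm2 probe sets were higher by their means, at 0.10 to 0.34. Tpm4, a form also found in nonmuscle cells, read 11.73 and 11.78 against 11.91, 11.97 and 12.09, a difference of 0.23 (SE 0.07, adjusted p = 0.551). In both genes the groups did not overlap. Tpm1 read 13.51 and 13.43 against 13.50, 13.48 and 13.48, and the P467L values lay within the control range. A dim Tpm1 probe set (1456623_at) gave -0.90 (SE 0.47), with 6.90 in P467L replicate 1 against 7.87 to 8.88 in the other arrays. The remaining Tpm1 probe sets gave -0.09 (SE 0.05) and 0.02 (SE 0.07).

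Actin forms the thin filament itself. Acta2, the α-actin of vascular smooth muscle, read 14.79 and 14.80 in non-transgenic and 14.79, 14.81 and 14.83 in P467L aortas. The second Acta2 probe set (1444105_at) read 11.51 and 11.46 against 11.39, 11.39 and 11.08, lower in 3 of 3 P467L arrays by 0.20 (SE 0.12, adjusted p = 0.784). The third (1456658_at) read 9.88 and 9.97 against 8.93, 9.80 and 9.87, with replicate 1 the lowest. Brightest and dimmer probe sets of Acta2 thus pointed in opposite directions, and none passed. Actg2, the γ-actin of visceral smooth muscle, read 12.02 and 11.87 against 11.97, 11.87 and 11.77. Its level in non-transgenic replicate 2, the array with the highest stomach markers, was the lower of the controls. The part of stomach tissue in the Actg2 level was not tested.

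The remaining actin-binding genes overlapped between the groups. Tagln (transgelin, also called SM22α) lay between 14.65 and 14.68 in all arrays, and Cnn1 (calponin, an inhibitor of the myosin ATPase) between 13.66 and 13.79. Lmod1, a leiomodin that nucleates actin filaments, read 11.96 and 11.91 in non-transgenic and 12.12, 11.96 and 11.96 in P467L aortas. Cald1 (caldesmon, which holds actin from myosin) differed by -0.04 (SE 0.09) in its brightest probe set. All 5 Cald1 probe sets were lower by their means, and the largest size, -0.74 (SE 0.76), came from a probe set (1433147_at) at 6.64 in P467L replicate 1 against 8.63 to 8.84 elsewhere. Without that array the brightest Cald1 probe set gave 0.04.

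**Figure D2:**
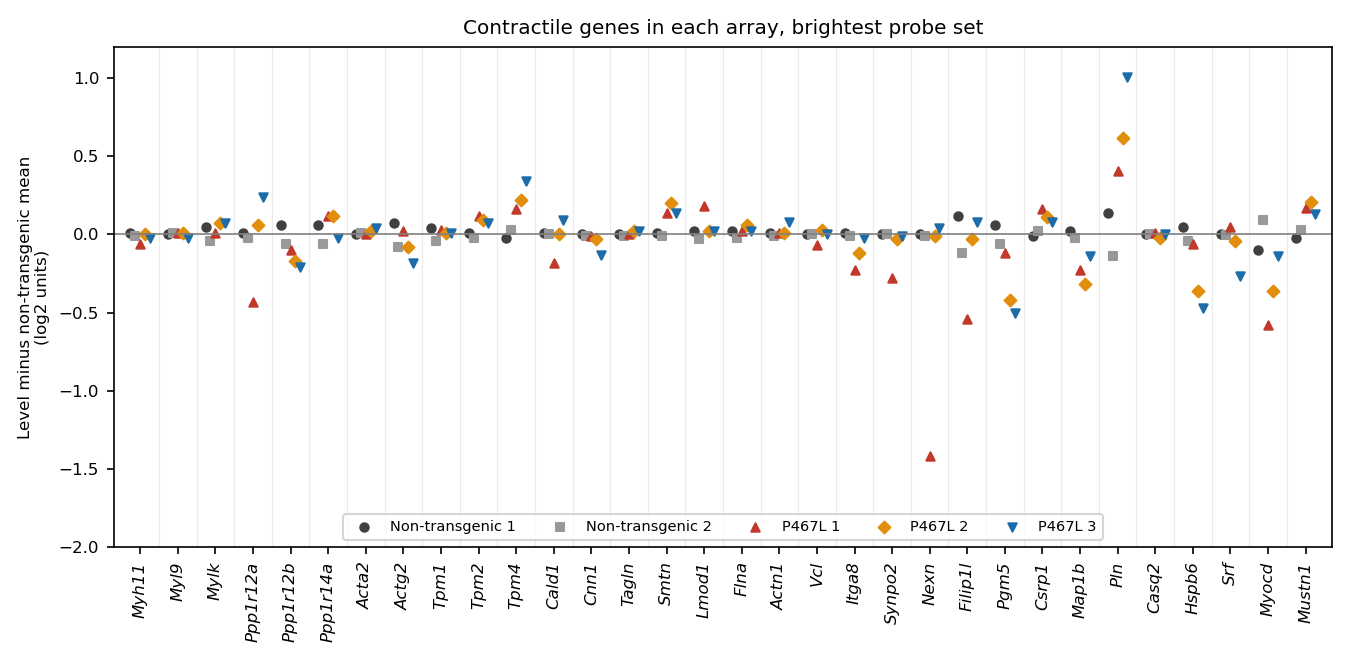
Level of each of the 32 genes in each array minus its non-transgenic mean (y axis, log2 units, brightest probe set), with a marker for each of the 2 non-transgenic and 3 P467L arrays. Bright genes such as Acta2, Tagln and Myl9 lie on the zero line in all arrays, Pln lies above zero in all P467L arrays, and P467L replicate 1 lies far below the others in Nexn.

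Of 10 adhesion and scaffold genes, 7 were lower and 3 higher by their means, and the groups separated in 5, 4 lower and 1 higher. Among the lower ones, Synpo2 and Itga8 separated only in the last digit of the values. The highest P467L array read 12.77 against 12.78 in both controls for Synpo2, and 13.89 against 13.90 in the lower control for Itga8. Over all genes 22.7% separated (16.1% higher, 6.55% lower), and over those at a level of 11 or more 36.9% (26.1% higher, 10.8% lower). Pgm5 (aciculin, a phosphoglucomutase relative of adherens junctions) read 11.39 and 11.27 in non-transgenic and 11.21, 10.91 and 10.83 in P467L aortas. The difference was -0.35 (SE 0.13, adjusted p = 0.702), and leaving out any 1 array gave -0.46 to -0.27. Itga8, the α8 integrin subunit of vascular smooth muscle, read 13.92 and 13.90 against 13.68, 13.79 and 13.89. Its dimmer probe set (1427489_at) read 13.04 and 13.02 against 12.54, 12.60 and 12.88, lower by 0.36 (SE 0.12, adjusted p = 0.617). P467L replicate 3 lay nearest to the controls in both.

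Synpo2 (myopodin, an actin-bundling partner of α-actinin) was lower by all 4 of its probe sets. The brightest read 12.78 in both controls and 12.50, 12.75 and 12.77 in P467L aortas, a difference of -0.11 (SE 0.10) that was -0.02 without P467L replicate 1. The 2 dimmest were lower in every P467L array by a wider margin. One (1452879_at) read 9.83 and 9.88 against 9.47, 9.60 and 9.57, a difference of -0.31 (SE 0.06, adjusted p = 0.386). The other (1450828_at) read 9.23 and 9.34 against 8.89, 8.76 and 8.92, a difference of -0.43 (SE 0.07). Its adjusted p of 0.360 was the smallest of the 67 probe sets.

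Map1b, a microtubule-associated protein, read 9.57 and 9.52 in non-transgenic and 9.32, 9.23 and 9.41 in P467L aortas, a difference of -0.23 (SE 0.07, adjusted p = 0.561). Its dimmer probe sets disagreed, with -0.35 (SE 0.17) in 1450397_at and 0.02 (SE 0.07) in 1421850_at. Csrp1, a LIM protein that binds α-actinin and assists serum response factor, read 13.24 and 13.27 against 13.41, 13.36 and 13.33, higher in 3 of 3 arrays by 0.11 (SE 0.04, adjusted p = 0.671). Its second probe set gave 0.12 (SE 0.05). Actn1, the α-actinin that crosslinks actin at dense bodies, overlapped in its brightest probe set, at 13.61 to 13.70 over all arrays. The other Actn1 probe sets were higher in 3 of 3 P467L arrays, by 0.31 (SE 0.11, adjusted p = 0.631) and 0.22 (SE 0.07, adjusted p = 0.585).

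Flna, the actin crosslinker filamin A, lay between 13.81 and 13.89 and Vcl, the focal adhesion protein vinculin, between 12.74 and 12.84 over the 5 arrays, and in both the groups overlapped. The dimmer Vcl probe set (1416157_at) read 9.56 and 9.58 against 9.41, 9.41 and 9.49, lower in 3 of 3 P467L arrays by 0.13 (SE 0.04, adjusted p = 0.604). Nexn, the actin-binding nexilin, read 10.50 and 10.49 in non-transgenic and 9.08, 10.49 and 10.54 in P467L aortas. Its difference was -0.46 (SE 0.52) with all arrays and 0.02 without replicate 1. Filip1l read 12.26 and 12.02 against 11.60, 12.11 and 12.22, again lowest in replicate 1, and gave 0.03 without that array.

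P467L replicate 1 lay at least 0.5 log2 units below every other array in 8 of the 67 probe sets (11.9%), against 5.16% of all probe sets. They belong to Ppp1r12a (3 probe sets), Ppp1r12b, Acta2, Tpm1, Cald1 and Nexn. For 5 of these 6 genes it was a dimmer probe set, while the brightest probe set of the same gene read replicate 1 within 0.5 of another array. Only Nexn, with 1 probe set, was read that way by its brightest.

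**Figure D3:**
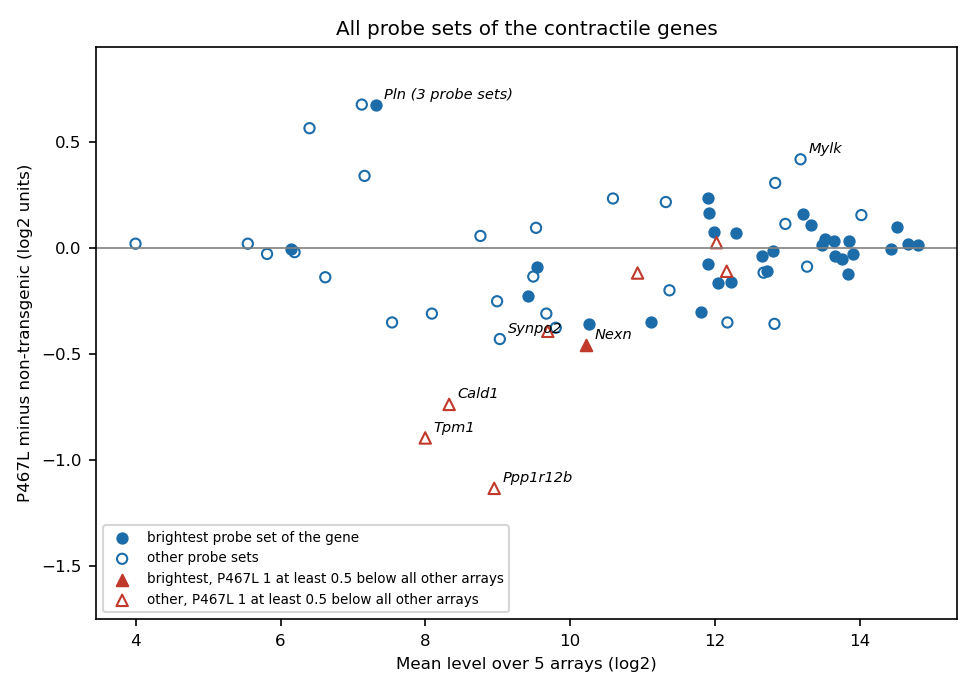
Difference between P467L and non-transgenic aortas (y axis, log2 units) against the mean level over 5 arrays (x axis, log2) for all 67 probe sets of the contractile genes, filled for the brightest of each gene. Differences narrow toward the top of the scale, and triangles mark the 8 probe sets in which P467L replicate 1 lay at least 0.5 below all other arrays, among them the lowest points, Ppp1r12b, Tpm1 and Cald1.

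The size of the difference varied with the probe set. In 15 probe sets of the 67 every P467L array was above both controls and in 19 every one was below, where 18.9% of all probe sets separated in either direction. That share covers probe sets of every level and was not computed for bright ones alone. Read by genes, the share was 22.7% over all and 36.9% at a level of 11 or more. In the 14 genes read at a level of 13 or more, the largest difference was 0.16, and in the 4 at 14 or more it was 0.10, while the 18 genes below 13 reached 0.68. Of the 17 genes with several probe sets, the second brightest gave a larger size than the brightest in 15. The count includes near ties in Pln (0.678 against 0.675) and Csrp1 (0.115 against 0.112). Over all genes with several probe sets the share was 47.9%, and over those at a level of 11 or more it was 57.7%. In 12 of the 17 genes all probe sets had the same sign, 5 higher (Mylk, Actn1, Tpm2, Csrp1 and Pln) and 7 lower (Myh11, Ppp1r12b, Cald1, Vcl, Itga8, Synpo2 and Myocd). Probe sets of 1 gene were read from the same arrays and are not independent.

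**Figure D4:**
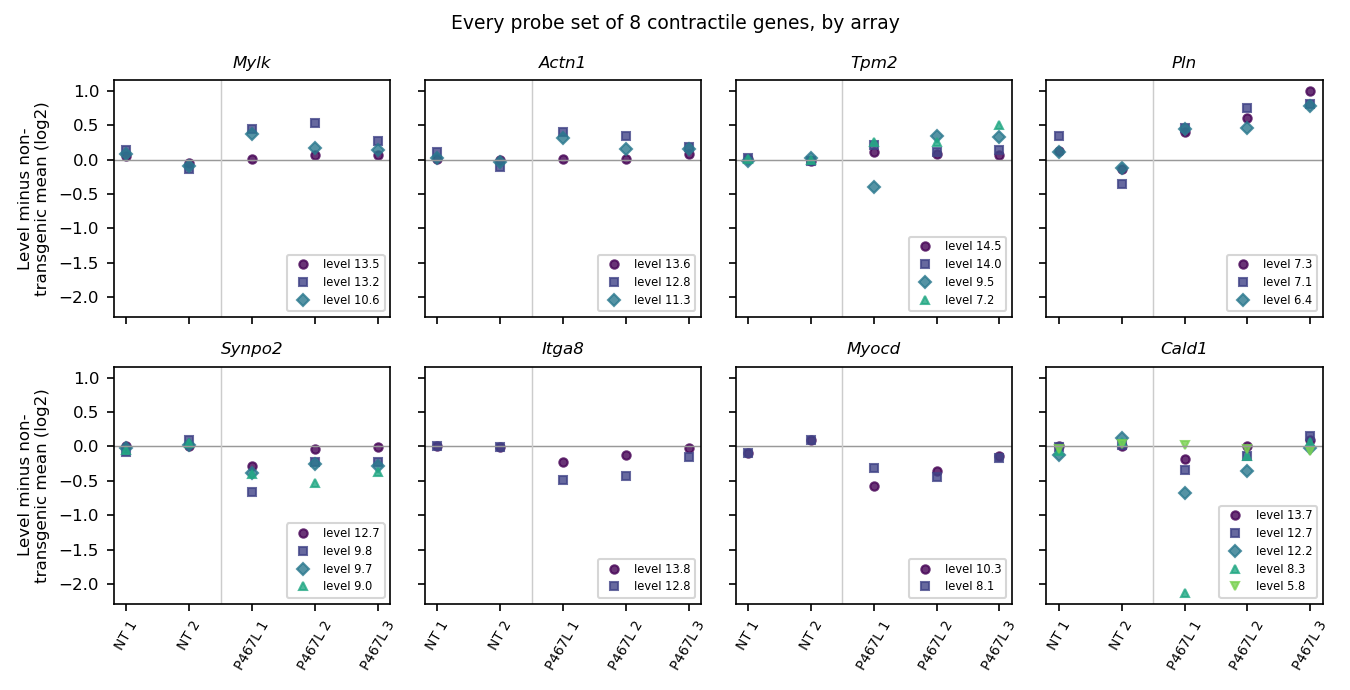
Level of every probe set of 8 contractile genes in each array minus its non-transgenic mean (y axis, log2 units), with 1 marker type per probe set and its mean level in the legend, NT marking the non-transgenic arrays. In Mylk and Actn1 the dimmer probe sets lie above zero in the P467L arrays while the brightest stays near it, all 3 Pln probe sets lie above zero, and the lowest Cald1 point belongs to P467L replicate 1.

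The widest difference toward higher levels was in Pln. It encodes phospholamban, which restrains the calcium pump of the sarcoplasmic reticulum. Its brightest probe set read 7.05 and 6.78 in non-transgenic (6.92 ± 0.19, SD, n = 2) and 7.32, 7.53 and 7.92 in P467L aortas (7.59 ± 0.30, SD, n = 3). The difference was 0.68 (SE 0.21, 95% interval 0.10 to 1.25), a 1.60-fold difference as measured. The other probe sets read 7.06 and 6.37 against 7.18, 7.47 and 7.53, and 6.18 and 5.94 against 6.51, 6.53 and 6.84. In all 3 probe sets each P467L array exceeded both controls, and the adjusted p values were 0.591, 0.667 and 0.511. Leaving out any 1 array gave 0.51 to 0.81 for the brightest. The levels lie near the array medians of 6.17 to 6.25 and were not tested against background.

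Pln is also abundant in heart. Striated muscle markers averaged 6.23 and 5.93 in the controls against 6.26, 6.09 and 6.11, so 1 P467L array lay above both controls. Single genes of that list stood with Pln. Tnnt2, the troponin T of heart, read 8.43 and 8.24 against 9.35, 9.24 and 9.48, higher by 1.02 (SE 0.10, adjusted p = 0.205). Ckm, the creatine kinase of striated muscle, read 7.67 and 7.09 against 9.08, 8.77 and 8.27, higher by 1.33 (SE 0.32, adjusted p = 0.491). Both were higher in 3 of 3 P467L arrays by more than Pln was, while over the 27 genes of the list 11 were higher and 16 lower, with a median of -0.03. The part of striated muscle in the Pln result was not tested. Casq2, the calcium-binding calsequestrin of cardiac muscle and some smooth muscle, lay between 6.12 and 6.15 in all 5 arrays. These readings were below the array medians of 6.17 to 6.25 and were not tested against background. Hspb6 (the small heat shock protein HSP20, a target of cyclic nucleotide kinases in relaxation) read 12.04 and 11.95 in non-transgenic and 11.93, 11.63 and 11.52 in P467L aortas. It was lower in 3 of 3 arrays by 0.30 (SE 0.14, adjusted p = 0.776), and P467L replicate 1 lay within 0.02 of the lower control. Without that replicate the difference was -0.42 (SE 0.06, adjusted p = 0.312).

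Srf, the transcription factor of the program, read 9.60 and 9.59 in non-transgenic and 9.64, 9.55 and 9.33 in P467L aortas, and its 2 probe sets gave -0.09 (SE 0.10) and 0.06 (SE 0.17). Myocd, the cofactor myocardin, read 10.38 and 10.57 against 9.90, 10.12 and 10.34, a difference of -0.36 (SE 0.15, 95% interval -0.77 to 0.06, adjusted p = 0.752). Its second probe set read 8.18 and 8.37 against 7.96, 7.83 and 8.11, a difference of -0.31 (SE 0.11, adjusted p = 0.658). Both probe sets were lower in 3 of 3 P467L arrays, with replicate 3 within 0.07 of the lower control. Without P467L replicate 1 and non-transgenic replicate 2 the brighter gave -0.15. Mustn1, a small nuclear protein of muscle and skeletal tissue, read 11.79 and 11.84 against 11.98, 12.02 and 11.94, higher in 3 of 3 arrays by 0.17 (SE 0.04, adjusted p = 0.520).

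Lists around the contractile genes gave no call either: 0 passed an adjusted p of 0.05 in each of the 4 that follow. Of 27 genes that set light chain phosphorylation, 11 were higher and 16 lower, with a median of -0.04. Those with the smallest p were nonmuscle myosin heavy chain Myh10 at -0.45 (SE 0.07, adjusted p = 0.325) and protein kinase Cδ (Prkcd) at 0.21 (SE 0.04, adjusted p = 0.445). Of 26 cofactors and competitors of serum response factor, 16 were higher and 10 lower, with a median of 0.04. Klf5, a zinc finger factor of activated smooth muscle, read 7.21 and 7.33 against 8.33, 8.13 and 8.08, higher by 0.91 (SE 0.10, adjusted p = 0.209). Gata6, a factor of differentiated vascular smooth muscle, measured -0.24 (SE 0.07, adjusted p = 0.540).

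Other smooth muscle cytoskeleton genes, 47 in number, had a median of 0.01, with 27 higher and 20 lower. Palld (palladin, an actin-bundling scaffold that binds α-actinin) read 10.36 and 10.06 in non-transgenic and 11.73, 11.42 and 11.50 in P467L aortas, higher by 1.34 (SE 0.14, adjusted p = 0.209). Sorbs2, an adaptor of focal adhesions, was higher by 0.53 (SE 0.08, adjusted p = 0.320). In both genes, named for the smallest p of the list, every P467L array lay above both controls. Over the list the groups separated in 18 genes (38.3%), against 22.7% of all genes and 36.9% of those at a level of 11 or more. Of 19 calcium store genes, 9 were higher and 10 lower, with a median of -0.04. The calcium pump Atp2a3 measured -0.46 (SE 0.10) and Hrc, a calcium-binding protein of the store, 0.73 (SE 0.16), both with an adjusted p of 0.445. Hrc read 8.40 and 8.25 against 9.28, 9.07 and 8.82, so it lay on the same side as Pln. Casq2 did not separate the groups, but it read below the array medians and may not have been detected, which was not tested.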

How the data were processed

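Total RNA of 5 pools (2 non-transgenic, 3 P467L) was measured on Affymetrix Mouse Genome arrays. The deposited values are on a log2 scale. Per the submitters' processing notes the authors used RMA and Affymetrix Power Tools, with no version given. RMA gives all arrays nearly 1 distribution, which can remove a shift shared by most transcripts. Precision is limited by having 5 arrays.

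Probe sets were named from the platform annotation with symbols of the GRCm38.p6 gene table: 34945 had 1 gene, 932 several and 9160 none, and 64 control probe sets were left out. The P467L arrays were set against the controls in limma (version 3.58.1, R 4.3.3) through lmFit and eBayes, a two-sided test without covariates on 4.23 degrees of freedom. Benjamini-Hochberg values were computed over the whole table of 45037 probe sets, and 0.05 was the threshold. An exact permutation test of 3 against 2 arrays cannot go below 0.1 and was not used. The series' design text calls the pools independent biological replicates, so p-values measure the spread between pools and not between mice. The pipeline was tested on simulated data.

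The genes, lists, alternatives and naming rule (all 32 genes, each probe set where those of a gene disagree in sign by over 0.2, the 2 genes of smallest p in each other list, and markers of other cell types only as ranges or where a result turns on them) were chosen with earlier results of these data known. Of 290 list entries, 16 had no single-gene probe set and were left out. The form of the CArG box with a G or C inside was added after the sequences were read, and 2 alternatives were added after the values were seen. A comparison of protein sequences was not made here.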

Additional observations from a re-analysis of the deposited data

How the results depend on the processing

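None of the 32 contractile genes was called under any alternative except the default array weights. Those weights did not converge, gave P467L replicate 2 a weight of 34.1 against 0.148 for replicate 1, and called 2245 probe sets and 6 contractile genes: Smtn, Tpm4 and Mustn1 higher, Pgm5, Hspb6 and Map1b lower. Weights estimated gene by gene, chosen after seeing the data, called 283 probe sets and 0 of the 32. Over all probe sets, 15 were called with each array centred on its median, 10 with 1 probe set per gene and 17 at an adjusted p of 0.10. The filters, the variance trend, the second quantile normalization and each fit that left out arrays called 0, and the other choices of probe set were not run for this count. The median over the 32 genes was 0.03 with median centring, -0.02 after a second quantile normalization, 0.01 under both weightings, -0.02 to 0.02 leaving out each array in turn, and 0.00 without non-transgenic replicate 2 and P467L replicate 1, a fit added later. It depended most on the probe set: -0.06 for the mean of all probe sets of a gene, -0.09 for the brightest at a level of at most 13 (27 genes) and -0.12 for the second brightest (17 genes). Leaving out each array in turn kept the sign of 21 of the 32 genes. With the replicate number as a block, 0 probe sets and 0 contractile genes were called and the median was 0.00. Same-numbered arrays deviated together at a correlation of 0.113 for number 1 and 0.008 for number 2. With 2 controls, their deviations mirror each other, so these values cannot show whether the numbers are a pairing. The main fit did not take the numbers as a pairing. Median centring raised all differences by about 0.04 and changed the sign of Myh11, Myl9, Ppp1r12a, Cald1, Vcl and Casq2. The second quantile normalization changed that of Myl9, Tpm1, Tagln and Casq2. The filter at the median level dropped Casq2. With 5 arrays, the 95% intervals of the 32 genes reached from 0.09 to 1.42 log2 units to either side.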

Other observations

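A list of genes known to be raised in smooth muscle after loss of the contractile program was measured beside the contractile genes. Of its 22 genes measured, 17 were higher and 5 lower in P467L aortas, with a median of 0.20, beside -0.01 over the contractile genes and 0.02 over all genes. The groups did not overlap in 16 of them (72.7%), 11 higher and 5 lower, against 22.7% of all genes and 36.9% of bright genes, and single differences ran from -0.92 to 1.18. In limma 0 passed an adjusted p of 0.05. At an unadjusted p of 0.05, 13 passed, 9 higher and 4 lower, where 6.94% of all genes passed higher and 2.51% lower. Lgals3 (galectin-3, made by macrophages and by modulated smooth muscle) read 9.17 and 9.32 in non-transgenic and 10.49, 10.45 and 10.33 in P467L aortas, higher by 1.18 (SE 0.08, adjusted p = 0.126). Fn1, the matrix protein fibronectin, read 13.41 and 13.43 against 13.79, 13.84 and 13.86, higher by 0.41 (SE 0.04, adjusted p = 0.199). Myh10, described above, is also on this list and was among its 5 lower genes, at -0.45 (SE 0.07, adjusted p = 0.325). Like the other lists, this one was chosen with earlier results of these data known, so its counts and shares are a description only. The difference between this list and the contractile genes was not tested. Several of its genes are also expressed by fibroblasts and macrophages. Macrophage markers were higher in 11 of 12 genes with a median of 0.22, and fibroblast markers in 10 of 12 with a median of 0.07. Of all 18193 genes, 10378 were higher. Dcn, Lum, Pdgfra, Col1a1 and Col3a1 are on both this list and the fibroblast list, so the fibroblast count is not a separate comparison. No macrophage marker is on this list. The part of fibroblasts and macrophages in this result was not tested.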
